A study of Bos indicus with 6 samples.

Results

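The fibroblast growth factor (FGF) ligands and receptors described here were the rows of the isthmus expression table whose gene symbol was FGF1, FGF2, FGF7, FGF9, FGF10, FGF18, FGFR1, FGFR2, FGFR3 or FGFR4. The table lists 24616 genes, and 9 of the 10 symbols stood on 1 row each, 5 ligands and 4 receptors. No row carried the symbol FGF10, which is not analysed here, and 4645 rows carry an Ensembl identifier without a symbol.

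The isthmus is the narrow part of the oviduct next to the uterus. Tissue through the whole wall was taken on day 4 after GnRH from the side of the corpus luteum (CL) of 6 healthy, multiparous Nelore cows (Bos indicus), with 1 RNA-seq library per cow. All cows received an intravaginal progesterone device of 1 g with 2 mg of estradiol benzoate, prostaglandin F2α analog (PGF) at removal of the device and again later, and a GnRH agonist to induce ovulation. In the LF/LCL group (large follicle, large CL; cows 617, 79 and 527) PGF was also given at insertion of the device, which stayed until 42 h before GnRH. For the SF/SCL group (small follicle, small CL; cows 856, 489215 and 97) removal was later, at 30 h before GnRH. The sequenced cows were the extremes of a ranking on follicle, CL and hormone measures, so estradiol before and progesterone after ovulation cannot be told apart as sources of a difference. The comparison asked which transcripts of the isthmus differed between these endocrine settings.

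FGFs are secreted proteins that bind tyrosine kinase receptors together with heparan sulfate chains. In many organs FGF7 and FGF10 are made by stromal cells and act on the epithelium through the IIIb splice form of FGFR2, whereas FGF9 and FGF18 act mainly through the IIIc forms made by mesenchymal cells. FGF1 and FGF2 lack a classical signal peptide, and FGF1 binds all receptors. The table counts reads per gene, so splice forms of a receptor were not separated, and levels are compared only between cows within a gene because transcript lengths were not used.

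The libraries held 23899117 to 34193164 uniquely mapped reads. Values are normalized counts, that is, reads divided by the size factor of the library. Cow 489215 stood apart from the other cows, with Euclidean distances on the log2 values of 142 to 178 to them against 64.5 to 106 among the other 5. Fold changes of the tested members and of the pathway genes named from the limma fit are therefore given with and without this library. The markers of oviduct tissue were present in all libraries, among them FOXJ1 of ciliated cells, PAX8 of secretory cells and MYH11 of smooth muscle. OVGP1, the oviduct-specific glycoprotein, had normalized counts of 271794 and 325158 in cows 856 and 97 and of 287 to 1950 in the other 4 cows, cow 489215 included.

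Differences were tested with limma on log2(normalized count + 1) across the 15387 genes whose mean was above 5 and above their SD, with 8 of the 9 rows among them. The exception was FGFR4, whose SD exceeded its mean. Log2 fold changes are SF/SCL over LF/LCL, so that a negative value means a higher level in LF/LCL. At a Benjamini-Hochberg adjusted p-value under 0.05, limma called 0 of the 8 members and 0 of all genes tested (0%). At an unadjusted p-value under 0.05 from limma there were 2 members, FGF9 and FGFR1, against 1333 of all genes (8.66%). Every cow of LF/LCL was above every cow of SF/SCL for 3 of the 8, FGF9, FGFR1 and FGFR3. Groups apart in this way, in either direction, were found for 18.1% of all genes. The median log2 fold change was -0.57 over the 8 members and -0.02 over all genes. Without cow 489215 it was -0.29 over the members and -0.00 over all genes. With so few members these shares are descriptions.

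**Figure D1:**
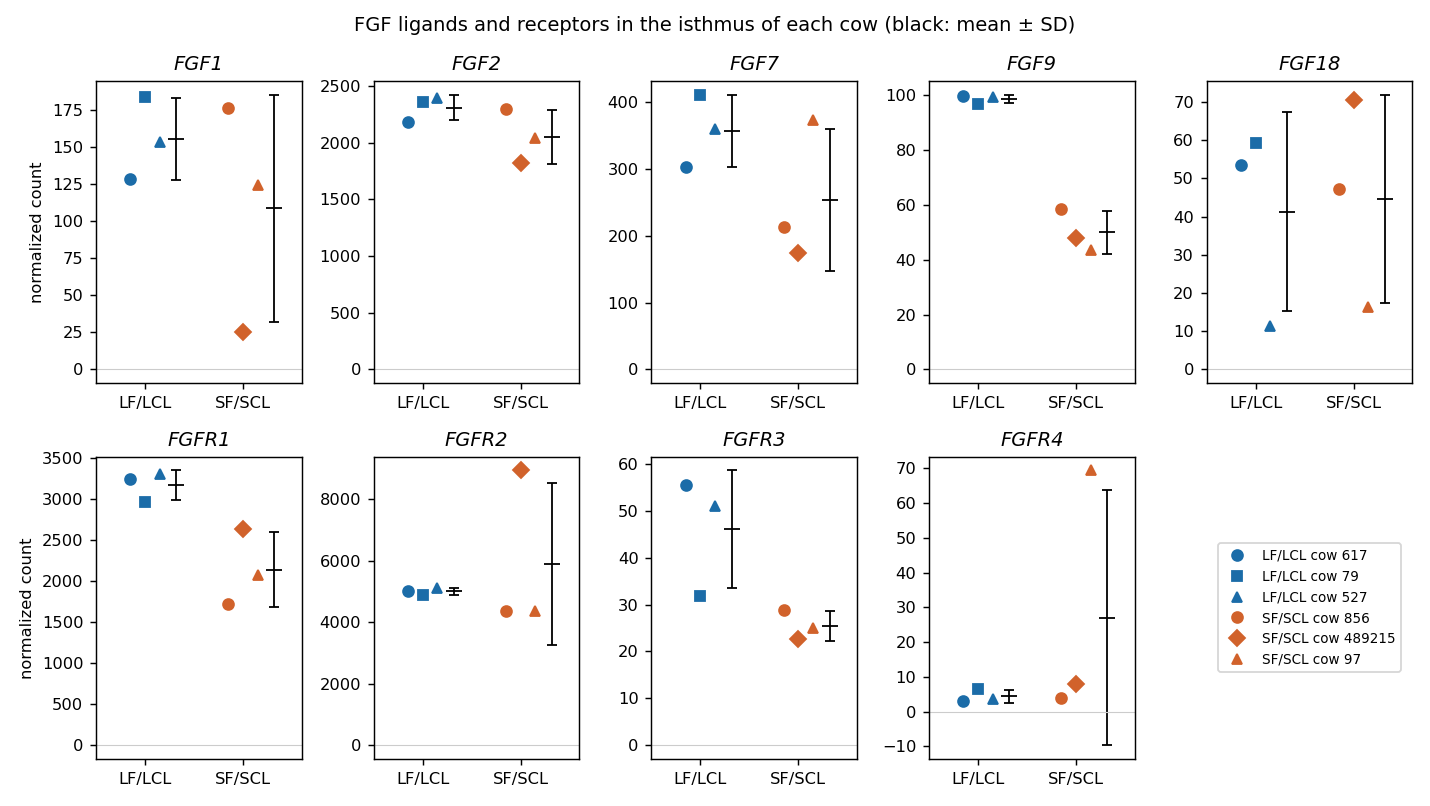
Normalized counts (linear axes) of the 9 FGF ligands and receptors in the isthmus of each cow, with blue for LF/LCL, orange for SF/SCL and 1 symbol per cow. Black bars are the mean and SD of 3 cows. The groups do not overlap for FGF9, FGFR1 and FGFR3, cow 489215 is highest for FGFR2 and lowest for FGF1, and cow 97 is the high point of FGFR4.

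FGF9, a ligand that acts on mesenchymal cells in the developing lung and gonad, had the clearest separation among the ligands. FGF9 (ENSBTAG00000048237) had normalized counts of 99.4, 96.7 and 99.3 in LF/LCL cows 617, 79 and 527 and of 58.5, 47.9 and 43.4 in SF/SCL cows 856, 489215 and 97. Every LF/LCL cow was above every SF/SCL cow, and cow 489215 lay between the other SF/SCL cows. The group means were 98.5 ± 1.54 and 49.9 ± 7.76 (SD, n = 3 each), 1.97 times as high in LF/LCL. On the log2 scale the fold change was -0.98 (standard error 0.31, 95% interval -1.72 to -0.23, unadjusted p = 0.0174 and adjusted p = 0.452 from limma). The counts rest on 36 to 113 reads per library, for which counting error alone gives an SD of 9.69 in LF/LCL and 7.27 in SF/SCL. The 3 LF/LCL cows thus lay closer together than counting error gives on average. The Wald test of DESeq2, which called 2.66% of the genes it tested, put FGF9 just past the threshold (adjusted p = 0.0449). Leaving out cow 489215 gave a log2 fold change of -0.95 with an adjusted p of 0.0582 from limma. Over the 14 alternatives the adjusted p ran from 0.0449 to 0.999 and the log2 fold change from -1.09 to -0.88.

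FGF7, the keratinocyte growth factor, had normalized counts of 302, 410 and 359 in LF/LCL cows 617, 79 and 527. In SF/SCL cows 856, 489215 and 97 they were 213, 174 and 374. Cow 97 lay within the LF/LCL range and the other SF/SCL cows below it. The means were 357 ± 53.9 and 254 ± 106 (SD, n = 3 each), and the log2 fold change of -0.56 (95% interval -1.39 to 0.27, adjusted p = 0.748 from limma) was not distinguishable from the spread. It was -0.33 without cow 489215 and -0.88 without cow 97.

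FGF2, or basic FGF, a growth factor that is held in the extracellular matrix, varied least among the members. FGF2 had normalized counts of 2179, 2357 and 2390 in LF/LCL cows 617, 79 and 527 and of 2296, 1819 and 2044 in SF/SCL cows 856, 489215 and 97. Its SD among the SF/SCL cows was 11.6% of the mean, where the median gene had 36.6%. The groups overlapped, and the log2 fold change was -0.17 (standard error 0.17, 95% interval -0.57 to 0.23, adjusted p = 0.857 from limma). Without cow 489215 it was -0.09. A difference in FGF2 of the size of that in FGF9 lies outside this interval.

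FGF1, or acidic FGF, had normalized counts of 129, 184 and 154 in LF/LCL cows 617, 79 and 527. In SF/SCL cows 856 and 97 they were 176 and 125, within or near the LF/LCL range, and cow 489215 had 25.3 from 19 reads. The log2 fold change was -0.89 in limma (standard error 0.72, with an adjusted p of 0.832) and -0.51 in DESeq2, and it rested on that cow. Without cow 489215 it was -0.05 in limma (95% interval -0.69 to 0.58).

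FGF18, a ligand known for its part in cartilage and bone growth, differed more among cows of a group than between the groups. FGF18 had normalized counts of 53.4, 59.1 and 11.4 in LF/LCL cows 617, 79 and 527 and of 47.1, 70.6 and 16.3 in SF/SCL cows 856, 489215 and 97. Cows 527 and 97, from different groups, had 13 and 15 reads, and the other 4 cows 51 to 63. Its SD over the 6 cows was 55.6% of the mean, where the median gene had 31.5%. Counting error alone gives an SD of 6.28 in LF/LCL, where the measured SD was 26.0. Between the groups, the log2 fold change of 0.18 had a 95% interval of -1.78 to 2.15 in limma and was -0.25 without cow 489215, so these cows say little about FGF18.

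FGFR1, the receptor most typical of mesenchymal cells, was higher in every LF/LCL cow. FGFR1 (ENSBTAG00000015457) had normalized counts of 3240, 2961 and 3302 in LF/LCL cows 617, 79 and 527 and of 1717, 2633 and 2071 in SF/SCL cows 856, 489215 and 97. The groups did not overlap, and cow 489215 was the SF/SCL cow nearest to LF/LCL. The means were 3168 ± 181 and 2141 ± 462 (SD, n = 3 each), 1.48 times as high in LF/LCL. This was a log2 fold change of -0.59 (standard error 0.20, 95% interval -1.07 to -0.10, unadjusted p = 0.0251 and adjusted p = 0.485 from limma). Without cow 489215 it was -0.75 (standard error 0.11), with an adjusted p of 0.00912 from limma. FGFR1 was then the 1 member called among 8, where limma called 18.2% of all 15495 genes in that fit, made up of 7.92% with the higher level in LF/LCL and 10.3% with the lower. With each other cow left out, FGFR1 did not pass the threshold, and over the 14 alternatives the adjusted p ran from 0.00912 to 0.999.

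FGFR2, the receptor whose IIIb form marks epithelium, was set apart by cow 489215. FGFR2 had normalized counts of 5024, 4895 and 5108 in LF/LCL cows 617, 79 and 527 and of 4354 and 4378 in SF/SCL cows 856 and 97, against 8940 in cow 489215. The SF/SCL cows 856 and 97 were below every LF/LCL cow and cow 489215 was above all others. With all cows the log2 fold change was 0.15 (95% interval -0.59 to 0.88, adjusted p = 0.923 from limma) and turned to -0.20 (95% interval -0.39 to -0.01, adjusted p = 0.133) without cow 489215. Of the 8 members, 2 were highest in cow 489215, FGFR2 and FGF18, and 4 were lowest there, FGF1, FGF2, FGF7 and FGFR3. Over all genes tested, 36.7% were highest and 35.7% were lowest in this library.

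FGFR3, known for restraining the growth of long bones, had normalized counts of 55.5, 31.9 and 50.9 in LF/LCL cows 617, 79 and 527. In SF/SCL cows 856, 489215 and 97 they were 28.9, 22.6 and 24.9. The groups did not overlap, but the nearest cows, 79 at 31.9 and 856 at 28.9, were closer than the counting SD of 6.63 in LF/LCL. The means were 46.1 ± 12.5 and 25.5 ± 3.15 (SD, n = 3 each), and the log2 fold change was -0.80 (95% interval -1.73 to 0.13, adjusted p = 0.647 from limma). Without cow 489215 it was -0.72.

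FGFR4, a receptor best known from the liver, was near its detection limit in 5 of the 6 cows. FGFR4 had normalized counts of 3.14, 6.57 and 3.51 in LF/LCL cows 617, 79 and 527 and of 3.80 and 7.99 in SF/SCL cows 856 and 489215, from 3 to 7 reads each. Cow 97 had 69.4 from 64 reads. The mean of SF/SCL, 27.0 ± 36.7 (SD, n = 3), thus rested on 1 animal. When no filter was applied the log2 fold change was 1.47 (adjusted p = 0.797 from limma).

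**Figure D2:**
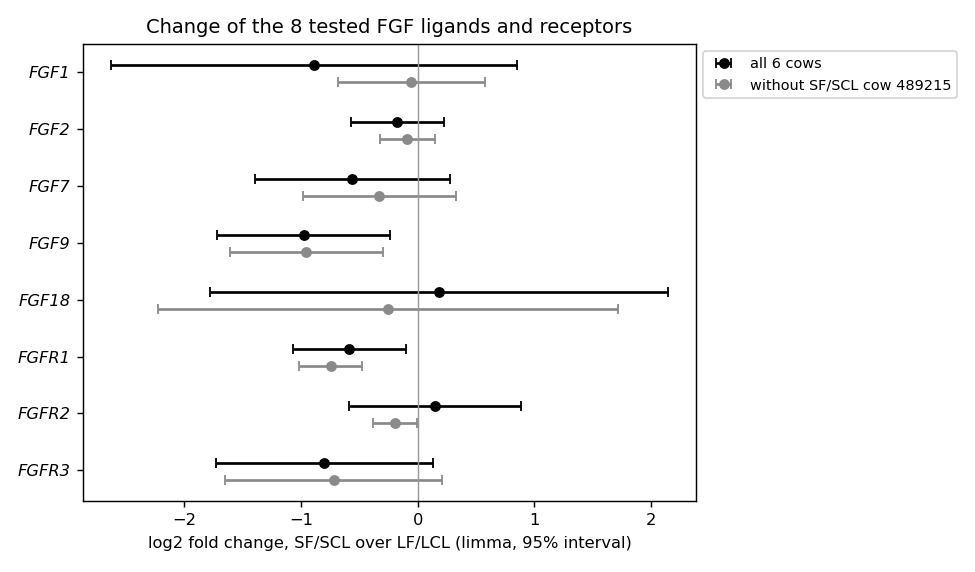
Log2 fold change (SF/SCL over LF/LCL) of the 8 tested ligands and receptors with its 95% interval from limma, in black for all 6 cows and in grey without SF/SCL cow 489215. In black the intervals of FGF9 and FGFR1 lie below 0 and the others include it. Leaving out the cow narrows the interval of FGFR1, moves FGF1 to -0.05 and takes FGFR2 from 0.15 to -0.20.

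The balance between receptors was read from ratios of normalized counts within a library, after adding 1, which hardly depend on the size factors. The log2 ratio of FGFR2 to FGFR1 was 0.63, 0.72 and 0.63 in LF/LCL cows 617, 79 and 527 and 1.34, 1.76 and 1.08 in SF/SCL cows 856, 489215 and 97. All SF/SCL cows were thus above all LF/LCL cows, and the gap between the nearest cows was 0.35. The means were 0.66 ± 0.05 and 1.39 ± 0.34 (SD, n = 3 each), a difference of 0.73 (exact permutation test, two-sided, p = 0.1, adjusted p = 0.15 over 3 ratios). A p of 0.1 is the smallest that 3 cows against 3 can give. Leaving out 1 cow at a time kept the difference between 0.55 and 0.89, the lowest value being that without cow 489215. In cows 856 and 97 the shift went with a lower FGFR1. In cow 489215 it went with the high FGFR2 and also with an FGFR1 of 2633, below the 2961 to 3302 of LF/LCL.

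For FGFR3 to FGFR1 the difference in the log2 ratio was -0.21 (exact permutation test, p = 0.6), and the groups overlapped. It was 0.02 without cow 489215. For FGFR4 to FGFR1 it was 2.06 (exact permutation test, p = 0.1, adjusted p = 0.15), with no overlap, and it was 0.91 without cow 97, on 3 to 7 reads of FGFR4 in each of the other cows. The gap between the nearest cows was 0.13. The counts of FGFR4 alone overlapped between the groups, while FGFR1 was lower in every SF/SCL cow.

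**Figure D3:**
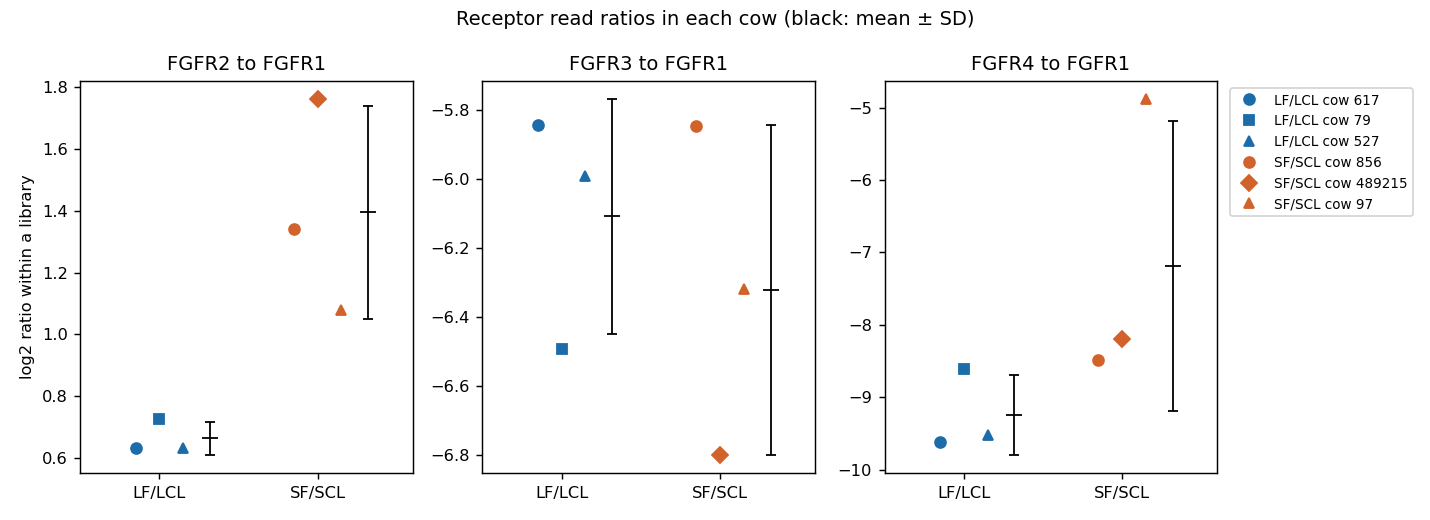
Log2 ratio of the normalized counts of FGFR2, FGFR3 and FGFR4 to those of FGFR1 within each library, after adding 1, with blue for LF/LCL and orange for SF/SCL. The vertical axes differ in range, and black bars are the mean and SD of 3 cows. For FGFR2 the LF/LCL cows lie at 0.63 to 0.72 and the SF/SCL cows at 1.08 to 1.76.

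The marker genes of the cell types of the wall are given beside these values. With all cows, limma called 0 markers of any list at the adjusted threshold, where it called 0 of all genes. Without cow 489215, the fit in which FGFR1 was called, limma called 8 of the 10 fibroblast and 7 of the 9 smooth muscle markers. All of these had the lower level in SF/SCL. The 4 general epithelial, 5 ciliated and 1 secretory markers called in that fit had the lower level in LF/LCL. The 3 endothelial markers and 2 posterior HOX genes called had the lower level in SF/SCL. Of the nerve and Schwann cell list, 2 were called lower in SF/SCL and 1 lower in LF/LCL. The mesothelial list had 1 in each direction, and the leukocyte and erythrocyte lists had 0. Of all genes, 18.2% were called there. The summed normalized counts of 9 general epithelial markers, among them EPCAM and KRT8, were 29923 to 46018 in LF/LCL and 51776 to 73335 in SF/SCL, highest in cow 489215. EPCAM, KRT7, KRT8, KRT19, CLDN3, CLDN4 and ESRP1 were highest in that cow, and KRT18 in cow 97. GRHL2 was lowest in cow 489215, at a normalized count of 112 against 467 to 1119 in the other cows. The summed normalized counts of 10 fibroblast markers, among them COL1A1 and PDGFRA, were 409154 to 521324 in LF/LCL and 203569 to 304891 in SF/SCL. The sums of neither list overlapped between the groups. Of the epithelial markers 5 of 9 were higher in SF/SCL without overlap, and of the fibroblast markers 6 of 10 were higher in LF/LCL without overlap, where 18.1% of all genes did not overlap in either direction. Smooth muscle markers, 9 genes, summed to 808563 to 926324 in LF/LCL, to 375799 and 436809 in cows 856 and 97, and to 1275160 in cow 489215. ACTA2, CNN1, DES, TAGLN and SMTN were highest in cow 489215, but MYH11, MYLK and SYNPO2 were lower there than in every LF/LCL cow. Of the 9, 3 were higher in LF/LCL without overlap and 0 in SF/SCL. The 7 endothelial markers summed to 13671 to 17561 in LF/LCL and 11347 to 16743 in SF/SCL, and the 9 leukocyte markers to 2158 to 3579 and 2169 to 3192.

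The 6 mesothelial markers summed to 26271 and 26912 in cows 856 and 97 and to 2470 to 3512 in the other 4 cows, mostly through MSLN and WT1, while CALB2 was at 0 to 6.84 in all cows. LRRN4 of the same list went the other way, with 283, 412 and 175 in LF/LCL cows 617, 79 and 527 and 3.80, 5.33 and 16.3 in SF/SCL cows 856, 489215 and 97. The 9 ciliated markers summed to 34836 to 48420 in LF/LCL and 46720 to 57291 in SF/SCL, with PIFO at 0 in every library. The 5 secretory markers summed to 282384 and 338833 in cows 856 and 97, mostly OVGP1, and to 10718 to 31716 in the other 4 cows. The nerve and Schwann cell list summed to 3142 to 5661 in LF/LCL and 9083 to 32369 in SF/SCL almost wholly through S100B, while SOX10 was at 19.7 to 128 in all cows. This sum does not stand for the list. The 4 tested genes of the list had a median log2 fold change of -1.08 in limma, or -1.32 without cow 489215. Of these, 1 was higher in LF/LCL and 1 in SF/SCL without overlap, where 18.1% of all genes did not overlap. Erythrocyte markers summed to 5.27 to 25.3. Posterior HOX genes, which mark positions along the tract, summed to 6793 to 11180 in LF/LCL, to 2575 and 3881 in cows 856 and 97, and to 14037 in cow 489215. In whole-wall tissue fewer cells of a type and less RNA per cell cannot be told apart, and the part of these markers in the values of the FGF genes was not tested.

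**Figure D4:**
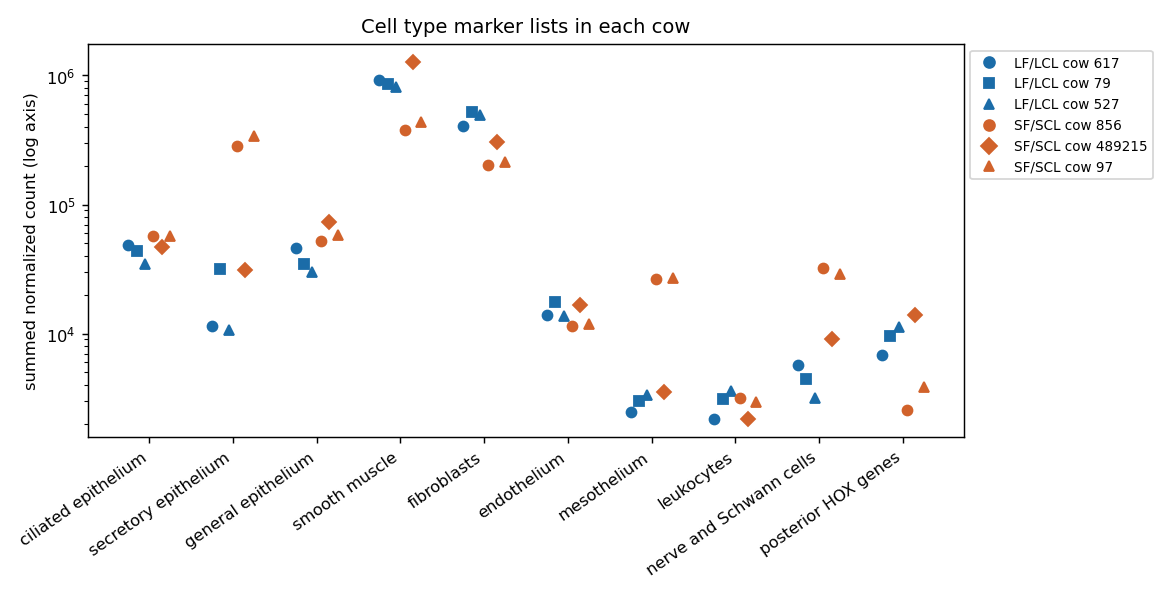
Summed normalized counts (log axis) of each cell type marker list except erythrocytes in each cow, with blue for LF/LCL and orange for SF/SCL. Fibroblast sums are higher in all LF/LCL cows and general epithelial sums in all SF/SCL cows, while cow 489215 has the highest smooth muscle and HOX sums.

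Members were also compared by the shape of their profile, as the root mean square difference of the centred log2 values over the 6 cows. FGF9 and FGFR3 were each other's nearest member, at 0.26, where their own SDs of log2 values were 0.50 and 0.48. FGFR1 lay nearest to FGF9 among the members, at 0.34, and to SDC2 among the 60 other pathway genes tested, at 0.14. FGFR2 was closest to MAP2K2, at 0.11, which was also highest in cow 489215. FGF2 was closest to GRB2, at 0.09, and FGF1 to PTPN11, at 0.26, both lowest in cow 489215. FGF7 was closest to SOS1, at 0.35, and FGF18 had no pathway gene within 0.72.

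Beyond the members, 81 other genes of the pathway were listed, of which 77 had a row and 60 were tested. With limma 0 of the 60 passed the adjusted threshold. At an unadjusted p-value under 0.05 from limma, 5 were higher in LF/LCL and 1 in SF/SCL, where 4.48% and 4.19% of all genes were. Without cow 489215, limma called 13 of the 60, of which 9 had the higher level in LF/LCL and 4 in SF/SCL. In that fit it called 18.2% of all genes, 7.92% and 10.3% in these directions, so the total was near the background. Their median log2 fold change was -0.20 with all cows and -0.12 without cow 489215, and that of all genes was -0.02 and -0.00.

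The other 12 FGF ligands were at or near 0. FGF3, FGF4, FGF6, FGF17 and FGF19 had 0 reads in every library (a limit of 3 reads in each), and FGF8, FGF16, FGF20, FGF21, FGF22, FGF5 and FGF23 stayed at or below a normalized count of 7.60. Among the homologous factors, which act inside the cell on sodium channels and bind no FGF receptor in the classical way, FGF11 and FGF13 had a row. FGF13 had 277, 253 and 258 in LF/LCL cows 617, 79 and 527 and 139, 466 and 129 in SF/SCL cows 856, 489215 and 97. Its log2 fold change was -0.37, and -0.97 without cow 489215 (adjusted p = 0.0157 from limma).

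Proteins that bind FGFs or their receptors at the cell surface held 7 of the 13 genes called without cow 489215. Of the 17 tested, 13 had a negative log2 fold change, and the median was -0.61, or -0.52 without cow 489215. Their groups did not overlap for 7 of the 17, all higher in LF/LCL, where 1323 of all 15387 genes tested were. In either direction 18.1% of all genes did not overlap. The 2 listed genes that were not tested, CDH2 and FGFBP3, were both higher in SF/SCL without overlap, FGFBP3 on 1 to 3 reads. The 7 called were all higher in LF/LCL, where 7.92% of all genes were. They were GPC4, a glypican, SDC1, SDC2 and SDC3, syndecans that carry heparan sulfate chains, HSPG2, which encodes the basement membrane proteoglycan perlecan, FLRT3, a membrane protein that binds FGF receptors, and the adhesion molecule NCAM1.

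SDC1 had normalized counts of 3274, 3096 and 3153 in LF/LCL cows 617, 79 and 527 and of 656, 2873 and 1303 in SF/SCL cows 856, 489215 and 97. For SDC1 the log2 fold change was -1.23 with all cows and -1.78 without cow 489215 (adjusted p = 0.568 and 0.00863 from limma). NCAM1 had 463, 430 and 436 in LF/LCL and 267, 54.6 and 137 in SF/SCL in the same order of cows. In limma the fold change of NCAM1 on the log2 scale was -1.80, and -1.21 without cow 489215. For HSPG2 the counts were 15202, 17905 and 18782 in LF/LCL and 10668, 3259 and 12446 in SF/SCL, with -1.19 on the log2 scale for all cows and -0.58 when cow 489215 was left out. Cow 489215 was thus lowest for HSPG2 and NCAM1 and close to LF/LCL for SDC1. For SDC2 it was -0.61 with all cows and -0.73 without cow 489215. SDC3, lowest in that cow, had -1.16 and -0.48, FLRT3 had -0.88 and -1.27, and GPC4, highest in that cow, had -0.45 and -0.97. KL and KLB, the co-receptors of the hormone-like FGFs, had log2 fold changes of 0.16 and -0.96 with overlapping groups, and of 0.32 and -1.98 without cow 489215. KLB was at 22.6 in that cow, at 1.52 and 2.17 in the other SF/SCL cows and at 9.39 to 10.5 in LF/LCL.

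The proteins that carry the signal from the receptor were close to even. Of the 20 tested, 13 had a negative and 7 a positive log2 fold change, with a median of -0.14, which was -0.01 without cow 489215. RPS6KA1, a kinase activated by ERK, had normalized counts of 1684, 1550 and 1580 in LF/LCL cows 617, 79 and 527 and of 3336, 1997 and 3040 in SF/SCL cows 856, 489215 and 97. RPS6KA1 was higher in every SF/SCL cow, with a log2 fold change of 0.77 (adjusted p = 0.437 from limma) and of 0.99 without cow 489215 (adjusted p = 0.00261). MAPK3, which encodes ERK1, had a log2 fold change of -0.12, and of -0.42 without cow 489215 (adjusted p = 0.0308 from limma).

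Of the 14 feedback inhibitors, 12 were tested, with a median log2 fold change of -0.26, or -0.12 without cow 489215. DUSP4, a phosphatase of ERK, had normalized counts of 69.1, 92.9 and 54.5 in LF/LCL cows 617, 79 and 527 and of 38.7, 13.3 and 19.5 in SF/SCL cows 856, 489215 and 97, without overlap, and a log2 fold change of -1.66 (adjusted p = 0.433 from limma), or -1.32 without cow 489215. DUSP6, the ERK phosphatase most often used as a readout of FGF signalling, had 2307, 2346 and 2036 in LF/LCL and 2848, 1914 and 2950 in SF/SCL. The difference on the log2 scale was 0.18, and 0.38 without cow 489215 (adjusted p = 0.0425 from limma), opposite in sign to that of DUSP4. CBL, a ubiquitin ligase that takes receptors off the surface, had a log2 fold change of -0.39 that turned to 0.98 without cow 489215 (adjusted p = 0.0101 from limma). SPRY1, SPRY2 and SPRED1 had log2 fold changes of 0.06, -0.13 and -0.09 with overlapping groups. Without cow 489215, highest for SPRY1 and SPRY2, they were -0.14, -0.46 and -0.10. IL17RD had 553, 742 and 564 in LF/LCL and 431, 69.2 and 380 in SF/SCL, in the same order of cows. SPRED2 had 321, 351 and 337 in LF/LCL and 304, 86.5 and 268 in SF/SCL. Both were lowest in cow 489215, without overlap of the groups. Their log2 fold changes were -1.44 and -0.81 (adjusted p = 0.647 and 0.748 from limma), and -0.60 and -0.24 without that cow.

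Among the early targets, 9 of 10 were tested, and the median log2 fold change was 0.10, which turned to -0.10 without cow 489215. ETV1, an ETS transcription factor, had normalized counts of 130, 99.5 and 131 in LF/LCL cows 617, 79 and 527 and of 52.4, 33.3 and 79.1 in SF/SCL cows 856, 489215 and 97. Its groups did not overlap, with a log2 fold change of -1.19 (adjusted p = 0.484 from limma), or -0.88 without cow 489215. ETV4 and ETV5, of the same family, had log2 fold changes of 0.19 and -0.53 with overlapping groups, and of 0.94 and -0.59 without cow 489215. CCND1, cyclin D1, had 0.18, and 1.16 without cow 489215 (adjusted p = 0.0125 from limma), where its normalized count was 79.9 against 246 to 704 in the other cows. Both signs of the log2 fold change occurred among the feedback inhibitors and among the early targets. The tested feedback inhibitors had 8 negative and 4 positive log2 fold changes, and the early targets had 4 negative and 5 positive. All LF/LCL cows exceeded all SF/SCL cows for 3 tested inhibitors (DUSP4, IL17RD and SPRED2) and 1 tested target (ETV1). The reverse held for 0 tested genes of either list. Among all genes, 18.1% were apart in either direction. Calls without cow 489215 went the other way, with 2 inhibitors and 1 target higher in SF/SCL and 0 in LF/LCL.

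**Figure D5:**
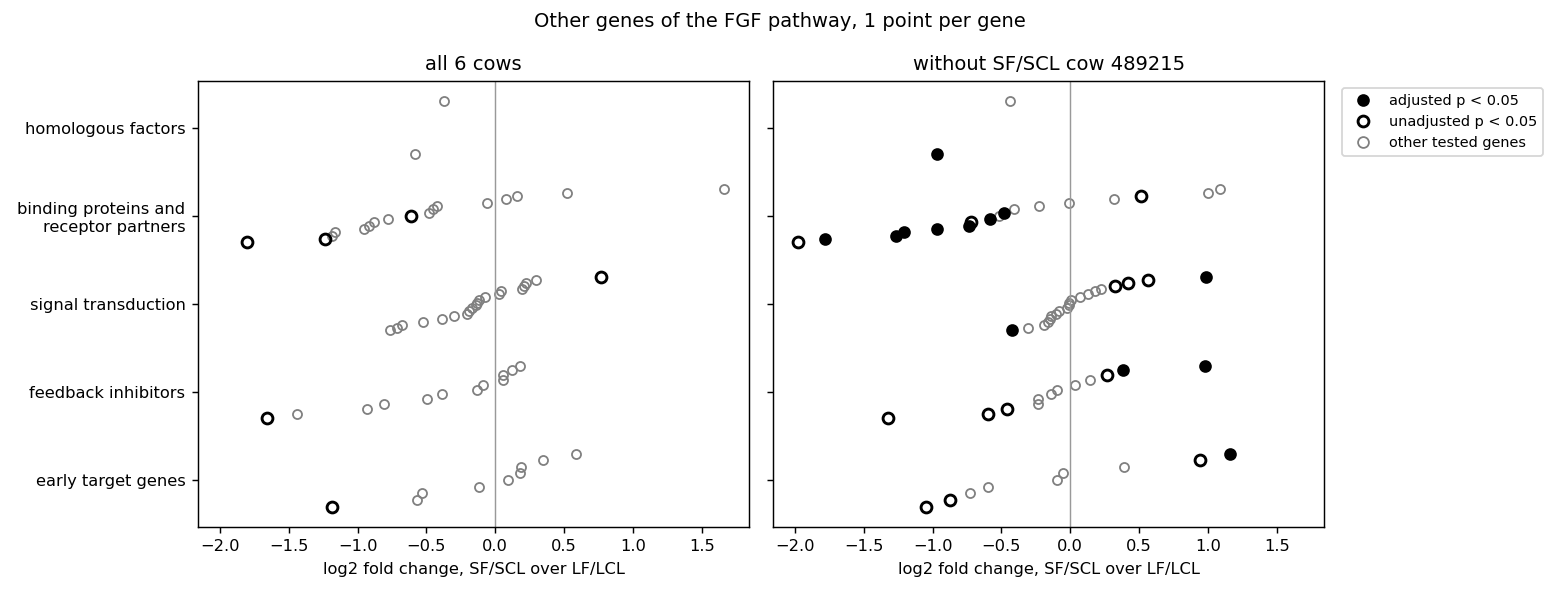
Log2 fold change (SF/SCL over LF/LCL) of the 60 tested pathway genes by list, 1 point per gene, with all 6 cows on the left and without SF/SCL cow 489215 on the right. Filled points have an adjusted and thick rings an unadjusted p-value under 0.05 in limma. There are 0 filled points on the left and 13 on the right, of which 7 are binding proteins and receptor partners, all at negative values.

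Besides the 12 ligands, 5 pathway genes were not tested, FGFBP3, CDH2, SPRY3, SPRY4 and FOSL1, and the values of CDH2, SPRY3 and SPRY4 are given after they were seen. CDH2, or N-cadherin, which can bind FGFR1, had normalized counts of 103, 142 and 47.4 in LF/LCL cows 617, 79 and 527 and of 1581, 188 and 2493 in SF/SCL cows 856, 489215 and 97. SPRY3 had 73.3, 122 and 366 in LF/LCL and 5.32, 37.3 and 8.67 in SF/SCL. For both the groups did not overlap and cow 489215 was the SF/SCL cow nearest to LF/LCL. When no filter was applied their log2 fold changes were 3.34 and -3.50 (adjusted p = 0.457 and 0.426 from limma). SPRY4 had 228, 302 and 209 in LF/LCL and 703, 37.3 and 1853 in SF/SCL.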

How the data were processed

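The RNA-seq libraries of 6 isthmus samples were prepared by the authors from polyadenylated RNA. According to the methods and the submitters' processing notes, the authors filtered the reads, aligned them to the masked bovine assembly UMD 3.1 with TopHat2 2.0.8 and Bowtie2 2.1.0, counted uniquely mapped reads per gene with HTSeq 0.5.4p2 and divided the counts by the size factors of DESeq 1.12.1. Whether counting used the strand is not given in the sources used here. The deposited signal values are therefore normalized counts, 1 column per cow. Every value was a whole multiple of the value of 1 read in its library (100% of 24616 per library, within 0.05 reads), from which the reads were recovered. Intervals and limits from reads cover counting error only.

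The groups were compared with limma 3.58.1 (trend and robust) in R 4.3.3 on log2(value + 1). The filter was that written in the methods, which keeps a gene if its mean exceeds both 5 and its SD. It kept 15387 genes. A mean above 5 alone kept 15922, which is the number of isthmus genes the authors report as analysed. On the recovered reads, the edgeR 4.0.16 quasi-likelihood test and the DESeq2 1.42.0 Wald test were alternatives, and the tests were tried on simulated data. Receptor ratios were tested by exact permutation (scipy 1.17.1). Replicates of a group differed by far more than sampling noise. The members and gene lists were chosen with earlier results of these data known. All members are named, as are pathway genes with an unadjusted p-value under 0.05, or called without cow 489215, at most the 6 of smallest p per list. GPC4, KL, KLB, SPRY1, SPRY2, SPRED1, SPRED2, IL17RD, ETV4, ETV5, FGF11 and FGFBP1 were added after their values were seen. The listed genes FGF12, FGF14, FGFBP2 and ANOS1 had no row under these symbols. No sequence or position is given, and some marker genes are not reported here.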

Additional observations from a re-analysis of the deposited data

How the results depend on the processing

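DESeq2 called 409 genes, 1 member (FGF9) and 0 pathway genes, and edgeR's quasi-likelihood test with either normalization called 0 of each, with 2 members at an unadjusted p-value under 0.05. Leaving out 1 cow at a time gave 0 to 2827 genes, 0 to 1 members and 0 to 13 pathway genes, and each upper value was that without SF/SCL cow 489215. The log2 fold change of FGF18 ran from -0.55 to 0.77 when 1 cow was left out, below 0 without LF/LCL cow 527 (-0.55) and without cow 489215 (-0.25), and that of FGFR2 from -0.20 without cow 489215 to 0.32. The cause was not tested. The other 6 members kept their sign under all 14 alternatives, which were other pseudocounts, filters and scalings, count tests, and each cow left out. The difference in the log2 ratio ran from 0.55 to 0.89 for FGFR2 to FGFR1, from -0.45 to 0.025 for FGFR3 to FGFR1 (above 0 only without cow 489215) and from 0.91 to 2.71 for FGFR4 to FGFR1 (lowest without cow 97) when 1 cow was left out. No paired analysis of the groups was possible because each cow gave 1 isthmus library and the groups share no cow number. FGF9, FGF18, FGFR3 and FGFR4 rest on few reads, which limits the precision of their values.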

Other observations

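Cow 97 had the highest FGFR4, at a normalized count of 69.4 against 3.14 to 7.99 in the other cows, and also the highest UPK3B and UPK1B, uroplakins of the mesothelial list, at 626 and 184 against 37.2 to 326 and 17.8 to 89.2. The summed mesothelial markers did not single out cow 97, at 26912 against 26271 in cow 856, where FGFR4 was at 3.80. LRRN4 of this list was lower in cow 97 than in every LF/LCL cow. SPRY4 was also highest in cow 97, at 1853 against 37.3 to 703. FGFR4, UPK3B, UPK1B and SPRY4 were picked for this comparison after their values had been seen.

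FGF11 was high in LF/LCL cow 527, at a normalized count of 178 against 44.8 to 99.7 in the other cows, while FGF18 was lowest in that cow, at 11.4. FGFBP1, a carrier that releases FGFs from heparan sulfate, had 89.0, 16.9 and 7.03 in LF/LCL cows 617, 79 and 527 and 38.0, 164 and 62.9 in SF/SCL cows 856, 489215 and 97. Its log2 fold change was 1.66 (adjusted p = 0.734 from limma), or 1.09 without cow 489215, and the groups overlapped.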
